A study of Rattus norvegicus with 6 samples.

Results

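The insulin-like growth factor (IGF) axis was described in GH4C1 cells through 10 genes, Igfbp3, Igfbp2, Igfbp4, Igfbp5, Igfbp6, Igf1, Igf2, Igf1r, Igf2r and Irs2. Every probe set annotated to 1 of these symbols alone was taken, which gave 23 of the 31042 non-control probe sets of the array and 10 of 14217 genes. Igfbp3 was put forward because its log2 difference between the groups was among the most negative of these same arrays, and the others are its family and pathway. The values of all 10 genes are therefore given as a description, with no p-value, and nothing is read from the counts of them past a threshold. GH4C1 cells derive from a rat pituitary tumour and produce both growth hormone and prolactin, as somatolactotroph cells do. Of 6 cultures, 3 received a lentiviral vector with POU1F1(R271W) followed by an IRES-EGFP reporter, and 3 received EGFP alone. Both transgenes were driven by the PGK promoter, the multiplicity of infection was 5 and cells were harvested after 4 days. POU1F1 is a pituitary transcription factor, and the series title calls the R271W form a dominant negative mutant. The labels call the replicates biological but do not state what share of the cells carried the vector, whether cells were sorted, or from which species the POU1F1 sequence came.

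IGF1 and IGF2 are secreted growth factors that signal through the tyrosine kinase receptor encoded by Igf1r, and IRS2 is one of the docking proteins that pass the signal to PI3K and AKT. The IGF-binding proteins hold the ligands outside the cell, lengthen their stay and limit or deliver them to the receptor, and IGFBP3 is the main carrier in serum. The receptor encoded by Igf2r takes IGF2 into the cell for breakdown and also sorts mannose 6-phosphate tagged enzymes to lysosomes. In the pituitary, IGF1 is known for negative feedback on growth hormone.

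The sequence before the Igfbp3 start is shown because the transduced protein is a DNA-binding factor and Igfbp3 had the largest log2 differences among the tested probe sets of the axis, and that of prolactin because it is a known POU1F1 target. Both are RefSeq sequences of the GRCr8 assembly, 250 bases before the annotated start, printed 5′ to 3′ along the gene, which lies on the minus strand in both cases. The Igfbp3 window is chr14:86277945-86278194, and its capitals mark TATATA, a motif added after the sequence was seen. The Prl window is chr17:38298218-38298467, and its capitals mark a match to ATGNATA, the core of POU1F1 sites.
Igfbp3: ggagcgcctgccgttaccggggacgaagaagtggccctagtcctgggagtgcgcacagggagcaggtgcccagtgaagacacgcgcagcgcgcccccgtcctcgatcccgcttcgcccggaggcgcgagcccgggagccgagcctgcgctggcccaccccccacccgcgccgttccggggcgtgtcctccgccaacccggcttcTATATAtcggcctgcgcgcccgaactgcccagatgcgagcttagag
Prl: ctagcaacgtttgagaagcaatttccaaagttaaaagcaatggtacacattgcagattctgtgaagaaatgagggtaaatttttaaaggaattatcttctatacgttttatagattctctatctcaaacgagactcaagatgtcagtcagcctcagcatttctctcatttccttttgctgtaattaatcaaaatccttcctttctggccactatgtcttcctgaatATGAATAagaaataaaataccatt
ATGNATA was searched on both strands and was present in 8.73% of 33469 promoters of this length in the RefSeq table. It was found in none of 10 promoters of 9 axis genes (Igf2 has 2, and Irs2 is not among them), and neither was ATGCAAAT, which 1.56% of all promoters held. TATATA was held by 5.45% of all promoters and, among the axis genes, by Igfbp3. The Igfbp3 window was 71.6% G or C with 31 CG pairs, against medians of 51.2% and 5 over all promoters, while the Prl window was 33.6% G or C. These matches describe the letters of a short window, and nothing about binding was measured.

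Each culture was read on 1 array as MAS5 signals, which are linear brightness values, and a probe set was tested when its mean log2 signal over 6 arrays corresponded to a signal of at least 11.2. Gh1, Prl and Pou1f1 had control means of 6443, 4332 and 2301, as the label of the line asks. In R271W cells Gh1 averaged 6338 (log2 -0.03, limma adjusted p = 0.853), whereas Prl fell to 3175 (log2 -0.45, adjusted p = 0.00048) and Pou1f1 to 1836 (log2 -0.33, adjusted p = 0.00486). As the species of the POU1F1 sequence in the vector is not stated, it is not known whether the Pou1f1 probe set also reads the transgene. The summed signal of the somatolactotroph markers ran from 12700 to 13700 in controls and from 10500 to 12400 in R271W cells, without overlap, while the somatolactotroph genes Drd2 and Ghrhr were below the filter. The part of these markers in the lower Igfbp3 signal was not tested. Of the markers of other cells on the array, none of 5 fibroblast, 3 endothelial and 2 corticotroph genes reached the filter, while 2 of 4 gonadotroph, 1 of 3 thyrotroph and 1 of 4 leukocyte genes did, the brightest of each (Lhb, Cga and Cd74) with means of 28.1, 28.2 and 20.4. No value was exactly 0, and none of these genes passed the test. The summed signals of these 6 cell types overlapped between the groups, for instance at 36.4 to 44.5 and 12.5 to 39.3 for the fibroblast genes in control and R271W cells. The sum of 3 folliculostellate or progenitor markers, almost all of it Sox2, ran from 242 to 249 in controls and from 167 to 201 in R271W cells, and its part in any result was not tested. Median signals of the arrays were 22.4 to 22.9 in controls and 25.5 to 26.9 in R271W cells, so centring arrays on their medians moves every log2 difference by -0.20. The hybridisation spikes read 0.23 higher on the log2 scale in R271W cells and the 3′ over 5′ signal ratio was 0.145 higher for beta-actin and differed by -0.0121 for GAPDH. Their part in the results below was not tested.

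Igfbp3 was much lower in R271W cells on both of its probe sets. The brighter one read 754.4, 707.5 and 721.1 in the controls and 235.5, 220.1 and 225.1 in R271W cells. Each R271W array lay below each control by a wide margin, and the arrays of a group lay close together. The means were 728 ± 24.1 (SD, n = 3) and 227 ± 7.87 (n = 3), a log2 difference of -1.68 (SE 0.08), so that 31.2% of the control signal remained. In bulk RNA, fewer cells that express a gene and less of its RNA per cell cannot be told apart, and this holds for every value below. The dimmer probe set read 479.6, 417.4 and 479.7 in the controls and 106.3, 151.5 and 151.0 in R271W cells. Its log2 difference was -1.77 (SE 0.14), with 29.3% of the signal remaining. R271W replicate 1 was the lowest array on the dimmer probe set and the highest of its group on the brighter one, so the order of the R271W arrays is not shared by the probe sets. On the log2 scale the dimmer probe set lay 0.54 to 0.76 below the brighter one on the 5 other arrays and 1.15 below it on R271W replicate 1.

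**Figure D1:**
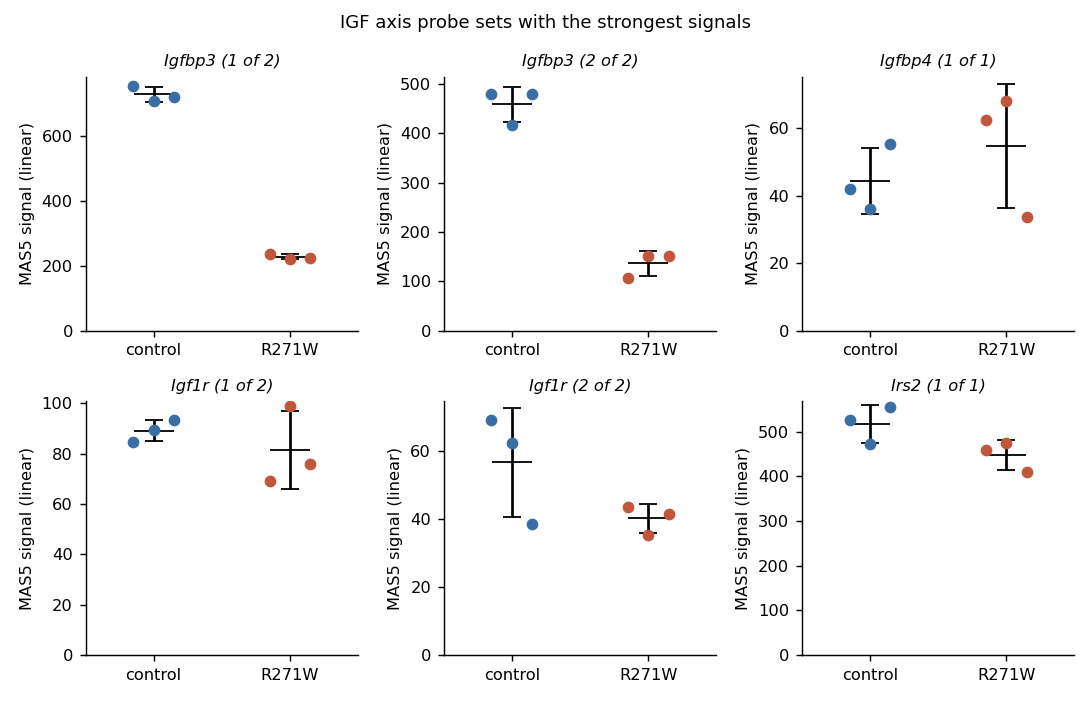
MAS5 signal (linear axis from 0) on each array for 6 probe sets of Igfbp3, Igfbp4, Igf1r and Irs2; dots are arrays, horizontal bars the mean and whiskers the SD of 3 arrays, and the title gives the probe set's place by brightness within its gene. The R271W arrays lie below all controls for both Igfbp3 probe sets (226.9 against 727.7 and 136.3 against 458.9 on average), and the groups overlap in the other 4 panels.

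Among all 18625 tested probe sets, 31 had a more negative log2 difference than the brighter Igfbp3 probe set. Among the 4915 whose control mean was 200 or more, the 2 lowest log2 differences were those of the 2 Igfbp3 probe sets. This cut uses the controls alone, the group where Igfbp3 was high. Igfbp3 was also chosen for its difference, so its rank restates that choice. Apart from Igfbp3 itself, the probe sets more negative than its brighter one had control means under 200. As deposited, 2 of the 8 tested axis probe sets passed an adjusted p of 0.05 in limma, both of them Igfbp3 and both lower. Over all tested probe sets 15.8% were called, 7.22% lower and 8.57% higher. The same 2 were the tested axis probe sets whose groups did not overlap, where 33.9% of all tested probe sets did not overlap, 14.2% with R271W below control and 19.7% with R271W above. Nothing is read from these counts, since the axis was chosen on this contrast. The median log2 difference of the 8 was -0.18, against 0.07 over all tested probe sets.

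**Figure D2:**
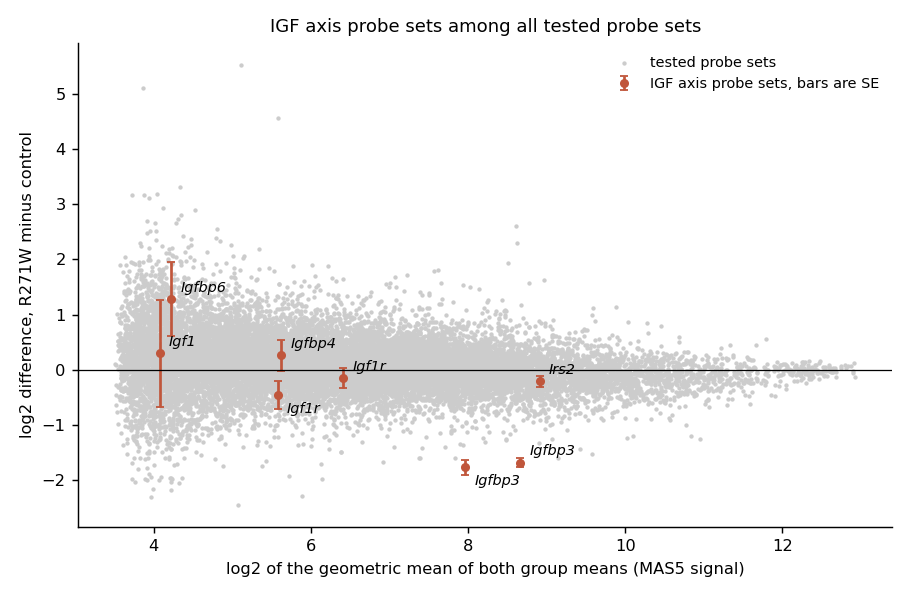
Log2 difference (R271W minus control) against the log2 of the geometric mean of both group means, for 18625 tested probe sets (grey) and 8 IGF axis probe sets (red, bars are SE). The 2 Igfbp3 points lie at the lower edge of the grey cloud at their brightness, at -1.68 and -1.77. Grey points near that edge include Ctnna2 at -1.59 and Mycn at -1.60. The points of Irs2, Igf1r and Igfbp4 lie within the cloud.

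The other binding protein genes were dim. Igfbp4, whose product mostly restrains IGF action, read 42.0, 36.1 and 55.1 in controls and 62.4, 68.0 and 33.7 in R271W cells. One R271W array was below all controls and the others above them, and the log2 difference was 0.26 (SE 0.29), or 0.07 to 0.58 with 1 array left out. Igfbp6, which prefers IGF2 as its ligand, read 23.4, 3.04 and 15.0 in controls and 28.8, 19.5 and 27.4 in R271W cells on its brighter probe set. Control replicate 2 stood far below the rest, and the log2 difference of 1.28 (SE 0.67) was 0.41 without that array. The dimmer Igfbp6 probe set, which was not tested, had the opposite sign at -0.98, so the probe sets of this gene disagree.

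Igfbp2, a binding protein abundant in fetal tissue and brain, had 1 probe set. It read 2.31, 1.03 and 3.25 in controls and 14.2, 12.0 and 22.7 in R271W cells. The groups did not overlap, and the direction was opposite to that of Igfbp3. Its mean over 6 arrays was below the filter, so it was not tested. At such signals a fold is poorly set: the log2 difference was 2.99, or 1.74 when 3.72, the 20th percentile of all signals, was added to each value. The 5 probe sets of Igfbp5, whose gene lies beside Igfbp2 in the RefSeq annotation, were all below the filter. Their groups overlapped on all 5, with means between 0.36 and 10.5.

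Neither ligand gave a usable signal. Igf1 read 2.43, 34.0 and 13.6 in controls and 3.92, 18.3 and 29.0 in R271W cells on its brightest probe set. The arrays of each group spread over a wide range and overlapped fully, and the log2 difference of 0.30 (SE 0.96) has no settled sign. Leaving out control replicate 1 gave -0.75 and leaving out R271W replicate 3 gave -0.29, whereas leaving out control replicate 2 or R271W replicate 1 gave 1.15. Its other 2 probe sets, and all 4 of Igf2, were below the filter. The 4 Igf2 probe sets had log2 differences between -0.82 and -0.33, and only on the second brightest did the groups not overlap, at 5.30, 8.39 and 5.24 in controls and 4.22, 2.22 and 4.57 in R271W cells. Over the 15 axis probe sets that were not tested, 3 had groups that did not overlap, 2 with R271W above and 1 below, where 10.5% of all untested probe sets did.

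**Figure D3:**
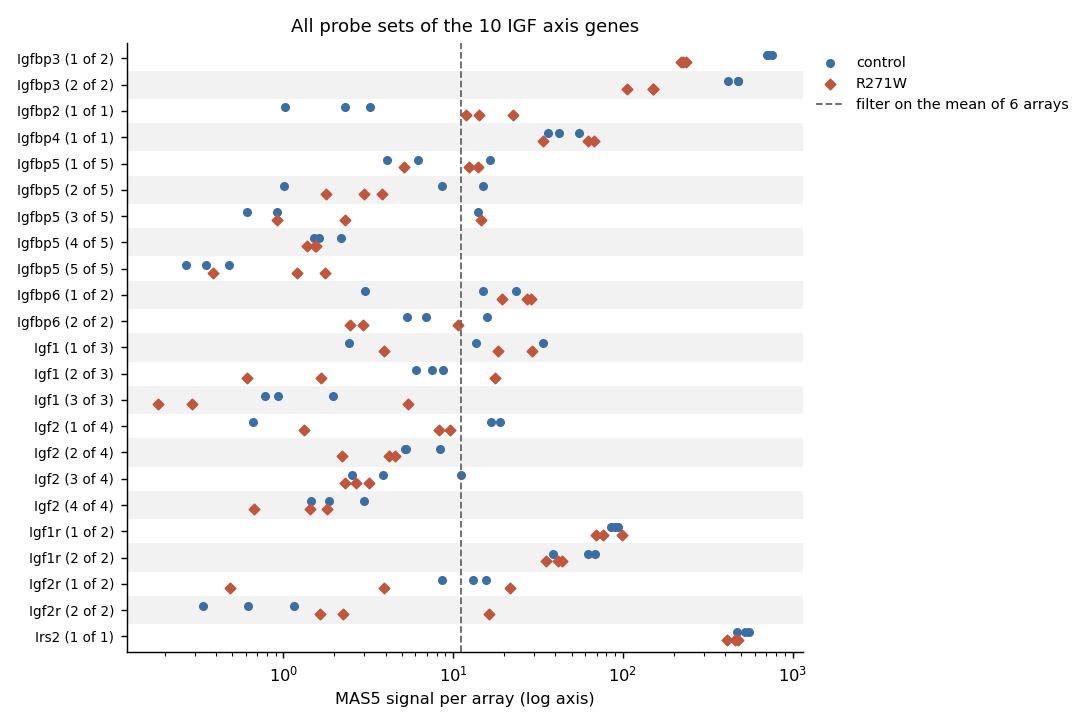
MAS5 signal on a log axis for all 23 IGF axis probe sets, numbered by brightness within a gene; circles are 3 control arrays, diamonds 3 R271W arrays, and the dashed line is the filter of 11.2 on the mean over 6 arrays. Both Igfbp3 probe sets, both Igf1r probe sets, Irs2 and Igfbp4 lie to the right of the line on every array, whereas most probe sets of Igfbp5, Igf1, Igf2 and Igf2r scatter to its left.

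Igf1r, the signalling receptor, was measured by 2 tested probe sets. The brighter read 84.7, 89.4 and 93.4 in controls and 69.2, 99.1 and 76.1 in R271W cells, with a log2 difference of -0.15 (SE 0.17), or -0.30 to -0.04 with 1 array left out. The other read 69.0, 62.4 and 38.6 against 43.6, 35.2 and 41.6, with a log2 difference of -0.46 (SE 0.26), or -0.72 to -0.30 with 1 array left out. The groups overlapped on both, through R271W replicate 2 on the brighter and control replicate 3 on the dimmer. Irs2 was bright, at 526.3, 472.1 and 555.3 in controls and 458.1, 474.8 and 410.0 in R271W cells. Only control replicate 2 and R271W replicate 2 crossed, and the log2 difference was -0.21 (SE 0.09). This size is close to the shift between scalings, and it was -0.41 with median centring and -0.14 with quantile normalization. Igf2r had 2 probe sets below the filter that disagreed in sign. The brighter read 15.5, 13.1 and 8.59 in controls and 0.484, 21.7 and 3.89 in R271W cells, and the dimmer read 0.617, 1.16 and 0.335 against 1.65, 2.26 and 16.4.

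The profile of Igfbp3 was compared with every other tested probe set with a single symbol. Likeness was the root mean square difference over 6 arrays between log2 profiles, each minus its own mean, so 0 means the same profile. The 5 closest were Mmd (0.09), Pdp2 (0.09), Mycn (0.11), Pcsk6 (0.17) and Ctnna2 (0.17), and the second Igfbp3 probe set lay at 0.21. Among the axis genes the next closest was Igf1r on its dimmer probe set, at 0.66, and Irs2 lay at 0.74. Pdp2, a phosphatase that activates pyruvate dehydrogenase, read 81.5, 69.3 and 77.8 in controls and 26.3, 25.0 and 21.6 in R271W cells. Pcsk6, a proprotein convertase, read 223.3, 220.9 and 204.9 in controls and 81.4, 88.9 and 76.9 in R271W cells. The groups of both were far apart, with log2 differences of -1.65 and -1.40. Mmd, the MYC-family gene Mycn and the catenin gene Ctnna2 had log2 differences of -1.53, -1.60 and -1.59. The measure selects genes for the same difference between the groups, so their likeness is a description.

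**Figure D4:**
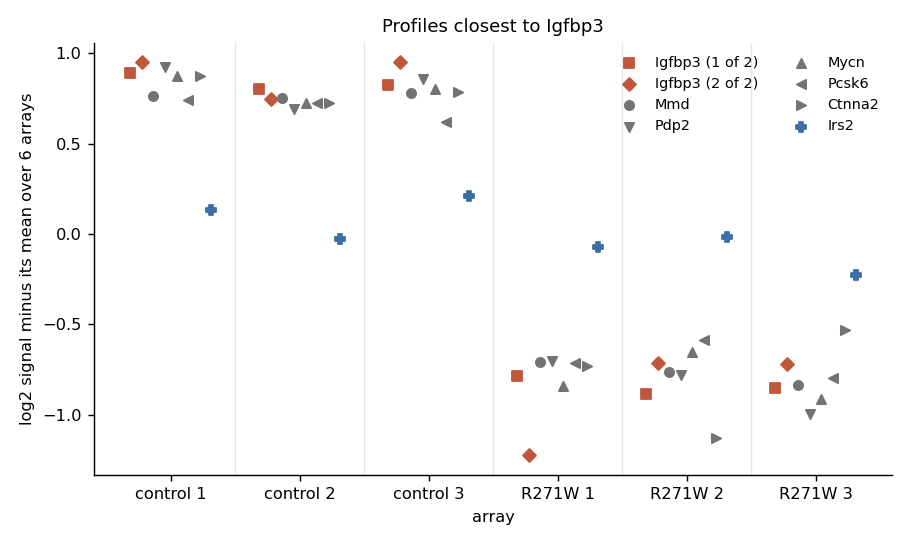
Log2 signal minus its mean over 6 arrays, on each array, for both Igfbp3 probe sets (red), the 5 closest genes (grey) and Irs2 (blue). The red and grey points lie above 0.5 on the 3 controls and below -0.5 on the 3 R271W arrays, with the dimmer Igfbp3 probe set lowest on R271W replicate 1, while Irs2 stays near 0.

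In the RefSeq annotation order Igfbp3 lies next to Igfbp1, another binding protein gene, and on the other side 2 positions from Tns3, which encodes a tensin of focal adhesions. These neighbours were looked up after the Igfbp3 values were seen. Igfbp1 was below the filter, at 9.17, 0.975 and 0.851 in controls and 1.26, 0.574 and 0.812 in R271W cells. The brighter probe set of Tns3 fell from 356.5 ± 14.7 to 260.7 ± 28.9 (n = 3 each, log2 fold change -0.46, limma adjusted p = 0.00842, or 0.0802 without the intensity trend). Its dimmer probe set read 0.26 without passing (adjusted p = 0.728).

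The genes around the axis were read from 7 lists of pathway genes, and each gene was represented by its brightest tested probe set. The lists were chosen with earlier results of these data known, so nothing is read from their counts or medians. Over all 10143 genes tested 18.9% passed, 9.87% higher and 8.98% lower, and the median log2 difference was 0.06. Of 17 tested genes among insulin, the insulin receptor family, adaptors and their inhibitors, 2 rose and 1 fell, with a median of -0.04. Gab1, a docking adaptor, rose from 264 ± 12.3 to 390.3 ± 2.75 (log2 0.57, limma adjusted p = 0.000852). Ins1, one of the rat insulin genes, rose from 20.2 ± 2.44 to 46.3 ± 1.91 (log2 1.20, adjusted p = 0.0115), and Ins2 was below the filter. The control mean of Ins1 was below the median signal of every control array. With the filter at the 60th percentile Ins1 was not tested. Grb10, an adaptor that restrains insulin and IGF receptors, fell from 1672 ± 27.5 to 1351 ± 105 (log2 -0.31, adjusted p = 0.0111). Its other probe sets read -0.34 and 0.02 without passing, and its call ended with quantile normalization (0.0714), without the intensity trend (0.135) and without R271W replicate 2 (0.0507). The insulin receptor gene Insr read 0.38 (adjusted p = 0.13) and Irs1 -0.20 (adjusted p = 0.572), and neither passed. With median centring 2 genes of this list rose and 4 fell, and with 75th percentile centring 2 rose and 3 fell.

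Other IGF-binding and related proteins were mostly dim, and 3 of 11 genes were tested. Kazald1, a secreted protein with an IGF-binding domain, rose from 109.5 ± 13.6 to 188.5 ± 10.9 (log2 0.79, adjusted p = 0.00119), and the CCN genes Ccn1 and Ccn3 did not pass. Igfbp1, Igfbp7 and Igfals, the partner of IGFBP3 in the serum complex, were below the filter. Of 7 tested genes among proteases that cut IGF-binding proteins and their inhibitors, 1 fell and 0 rose. It was Stc2, a stanniocalcin that inhibits the pappalysin proteases, from 315 ± 21.7 to 191 ± 24.8 (log2 -0.73, adjusted p = 0.000816). Pappa2, one of those proteases, read -0.13 (adjusted p = 0.895) at signals near 17.1 and 16.3. The list medians were 0.11 and 0.12, against 0.06 over all genes.

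Of 21 tested PI3K, AKT and FOXO genes, 5 rose and 2 fell, with a median of 0.10. The lean depends on the scaling: 3 rose and 4 fell with median centring, and 4 rose and 3 fell with 75th percentile centring. Foxo1, a transcription factor that AKT holds out of the nucleus, fell from 217.5 ± 20.5 to 113 ± 5.03 (log2 -0.94, adjusted p = 0.000195), whereas a dimmer tested probe set of the gene did not pass (log2 -0.18, adjusted p = 0.814). Of the pseudokinase genes of the Tribbles family, Trib2 and Trib3 moved in opposite directions, and Trib1 read -0.33 without passing (limma adjusted p = 0.172). Trib2 rose from 302 ± 29.9 to 574 ± 36.3 (log2 0.93, adjusted p = 3.67e-05), and its second probe set also rose, by 0.84. Trib3 fell from 550.0 ± 48.8 to 386 ± 24.7 (log2 -0.51, adjusted p = 0.00235), and its other probe sets fell by 0.76 and 0.44. Bad, a pro-apoptotic AKT substrate, rose from 95.8 ± 3.41 to 148 ± 8.86 (log2 0.63, adjusted p = 0.00515). Pik3r3, a regulatory PI3K subunit, rose by 1.01 on the log2 scale, and Tsc2, which restrains mTOR signalling, by 0.58. Pik3r2 rose by 0.41 (adjusted p = 0.0225), but its call ended under 7 of 15 alternatives. Among these were leaving out R271W replicate 1 (0.0838), R271W replicate 3 (0.0528), control replicate 1 (0.0532) and control replicate 3 (0.0851), median centring (0.204) and 75th percentile centring (0.0658). The kinase genes Akt1 and Akt2 read 0.03 (adjusted p = 0.898) and -0.38 (adjusted p = 0.253) without passing. Without the intensity trend 3 genes of this list rose and 1 fell, with Trib3 at an adjusted p of 0.0617, Tsc2 at 0.0527 and Pik3r2 at 0.101, and Tsc2 also did not pass with median centring (0.0563).

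Among 9 tested genes reported to encode partners of IGFBP3 outside the IGF receptors, 2 rose and 4 fell, with a median of -0.28. With either centring 2 rose and 5 fell. This list too was chosen with earlier results of these data known, so its counts and median are a description. Tfrc, the transferrin receptor, fell from 2089 ± 50.1 to 1114 ± 95.8 (log2 -0.91, adjusted p = 5.56e-06), and its second probe set fell by 0.87. Rxrg, which encodes a nuclear receptor for retinoids, rose from 21.7 ± 5.45 to 76.2 ± 13.6 (log2 1.83, adjusted p = 0.000533), and Lrp1, a large endocytic receptor, from 48.2 ± 3.12 to 82.0 ± 1.77 (log2 0.77, adjusted p = 0.0103). The second probe sets of Rxrg and Lrp1, both below the filter, had the opposite sign, at -1.11 and -0.73. With the filter at the 60th percentile Rxrg was not tested. Kpnb1, the importin beta that carries proteins into the nucleus, fell from 907 ± 40.7 to 654 ± 48.2 (log2 -0.47, adjusted p = 0.00142). Hspa5, an endoplasmic reticulum chaperone, and Nr4a1, an orphan nuclear receptor, fell by 0.28 (adjusted p = 0.0201) and by 0.55 (adjusted p = 0.0247) on the log2 scale. The call of Hspa5 ended without R271W replicate 1 (0.0835), control replicate 1 (0.109) or control replicate 2 (0.0661). That of Nr4a1 ended without R271W replicate 1 (0.0849), control replicate 2 (0.106) or control replicate 3 (0.0564). Without the intensity trend 2 rose and 1 fell, with Kpnb1 at 0.0593, Hspa5 at 0.19 and Nr4a1 at 0.122. Tmem219, which encodes a cell-surface IGFBP3 receptor, read -0.26 (adjusted p = 0.116).

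Around Igf2r, 15 genes of the mannose 6-phosphate pathway were all tested, and 2 rose and 2 fell, with a median of 0.14. With median centring, as with 75th percentile centring, 0 rose and 3 fell. Gnptg, a subunit of the enzyme that makes the mannose 6-phosphate tag, fell from 642 ± 25.0 to 486 ± 25.5 (log2 -0.40, adjusted p = 0.00426), whereas Gnptab, which encodes the catalytic subunits, read -0.02 (adjusted p = 0.94). M6pr, the cation-dependent receptor, read -0.17 (adjusted p = 0.117). Gga2 read 0.25 (limma adjusted p = 0.167) on its brighter probe set, whereas its dimmer one rose by 0.68 (adjusted p = 0.0215). With every tested probe set of the list counted, 3 rose and 2 fell. Plin3, whose product was described as a binding partner of mannose 6-phosphate receptor tails, fell by 0.39 (adjusted p = 0.0352), and the sorting genes Snx1 and Vps26a rose by 0.42 (adjusted p = 0.0238) and by 0.59 (adjusted p = 0.0473). Each of these 3 calls ended when any of several arrays was left out, a setting that also gave fewer calls over all probe sets. Plin3 did not pass without control replicate 1 (0.0699), 2 (0.0631) or 3 (0.136), or R271W replicate 2 (0.126) or 3 (0.0745). Snx1 did not pass without control replicate 2 (0.106) or R271W replicate 1 (0.0519) or 2 (0.101), nor with median centring (0.214) or 75th percentile centring (0.0576). Vps26a did not pass without control replicate 1 (0.0937) or 3 (0.172) or R271W replicate 1 (0.139) or 2 (0.147), nor with quantile normalization (0.0881), either centring (0.157 and 0.0798) or no filter (0.0588). Without the intensity trend 0 genes of this list passed (Gnptg at 0.0721), and without R271W replicate 2 only 1 did.

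Of 5 tested genes among IGF2 RNA-binding proteins and regulators of the Igf2 locus, 1 rose and 0 fell, with a median of 0.13. It was Ctcf, an insulator protein gene, from 355 ± 10.4 to 440.0 ± 38.1 (log2 0.31, adjusted p = 0.0371). Its call ended without control replicate 1 (0.0788), 2 (0.0813) or 3 (0.118), R271W replicate 2 (0.158) or R271W replicate 3 (0.0522), and with median centring (0.501), 75th percentile centring (0.13) or no intensity trend (0.147). The 3 Igf2bp genes, whose products bind Igf2 mRNA, were below the filter, and the noncoding neighbour H19 read -0.23 (adjusted p = 0.863).

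**Figure D5:**
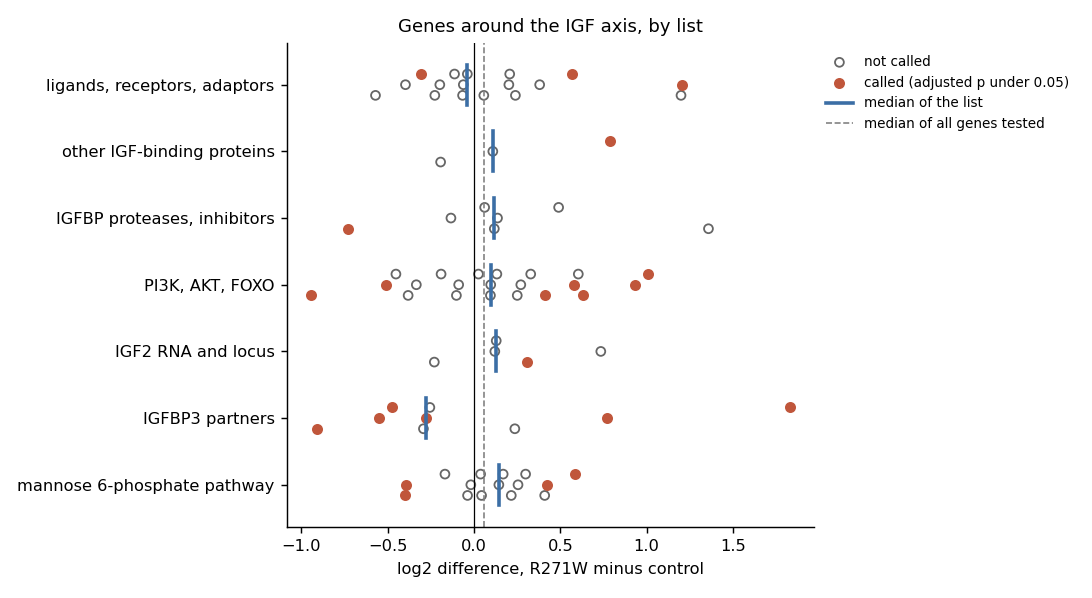
Log2 difference (R271W minus control) of the tested genes in 7 lists around the IGF axis, 1 point per gene; filled points passed an adjusted p of 0.05 in limma, blue bars are list medians and the dashed line is the median of all 10143 genes tested (0.06). Called genes lie on both sides of 0 in 4 of the 7 lists as deposited. With either centring the called genes of the mannose 6-phosphate list are all lower. The partners of IGFBP3 have the lowest median (-0.28) and the point farthest to the right, Rxrg at 1.83. The lists were chosen with earlier results of these data known, so these positions are a description.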

How the data were processed

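Total RNA of 6 cultures was read on Affymetrix rat arrays as biotinylated cRNA, per the labels. The deposited values are intensity values, 1 MAS5 signal per probe set, per the submitters' processing notes; the MAS5 version is not given in the sources used here, and no detection calls were used. Trimming 2% of the signals at each end left a mean of 100.0 on every array, which ties dim signals to the bright ones of that array. The number of arrays limits the precision: within groups the log2 signal had a median SD of 0.109 for tested probe sets at 200 or more and 0.285 below.

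Gene symbols came from the platform annotation, checked by Entrez ID against RefSeq's GRCr8 gene table: 20826 of 31042 non-control probe sets had 1 symbol, 436 several and 9780 none. Log2 signals were fitted by limma 3.58.1 under R 4.3.3 (lmFit, eBayes with intensity trend, two-sided, Benjamini-Hochberg over 18625 probe sets at or above the 40th percentile of mean log2 signal, threshold 0.05). The fit was checked on simulated data. Members and lists were chosen with earlier results of these data known. Named were all 10 members, up to 4 called genes per list with the smallest p, the 5 closest profiles and Prl, Gh1 and Pou1f1; other list genes were named after their values were seen. Figures used matplotlib 3.10.9. Alternatives were 3 other scalings, 2 other filters, an added 3.72 before log2, no trend, array weights, a replicate block, every probe set of a list and leaving out each array.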

Additional observations from a re-analysis of the deposited data

How the results depend on the processing

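Igfbp3 was chosen for its difference on these same arrays, so its values under other settings describe the settings and support nothing. Its brighter probe set gave -1.88 with median centring and -1.76 with 75th percentile centring, shifts of the scaling itself; leaving out 1 array gave -1.71 to -1.66 for it and -1.85 to -1.60 for the dimmer. The count of called axis probe sets was 2, or 3 with either centring, through Irs2, and nothing is read from it. Calls over all probe sets were 2940, and 1065 without the intensity trend; 54.3% of calls were higher, or 18.9% with median and 36.9% with 75th percentile centring. Without the trend the called genes were 4 for PI3K, AKT and FOXO, 3 for the partners of IGFBP3, 0 for the mannose 6-phosphate pathway and 0 for the IGF2 list. The receptor and adaptor list had 6 called genes with median and 5 with 75th percentile centring, against 3, and the IGF2 list had 0 with either. Leaving out 1 array gave 1 to 4 called genes in the mannose 6-phosphate pathway and 0 to 1 in the IGF2 list, while calls over all probe sets fell to between 2046 and 2680, so fewer calls are built into that setting. The binding protein and protease lists had a count of 1 under each of these alternatives.

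Replicate numbers are shared by the groups, but the deviations of same-numbered arrays had correlations of -0.00165, 0.0101 and -0.0201, and 1 of 6 arrays correlated best with its own number. With a replicate block 2479 probe sets passed, and the IGF2 list had 0 called genes, with Ctcf at an adjusted p of 0.0631. The partners of IGFBP3 had 5 called genes, without Hspa5 (0.0621), and the mannose 6-phosphate pathway had 3, without Plin3 (0.0578).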
